A study of Mus musculus with 6 samples.

Results

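The circadian clock genes examined here were 10 genes chosen by name and found by gene symbol among the 56980 genes of the deposited count table: the activators *Clock* and *Npas2*, the repressors *Per1*, *Per2*, *Per3*, *Cry1*, *Cry2* and *Ciart*, and the output activators *Dbp* and *Tef*. They were measured by RNA-Seq in bone marrow (BM) mesenchymal stromal cells (MSCs) from female mice that underwent ovariectomy (OVX) at 8 weeks of age. All recipients had their own gut microbiota depleted with antibiotics and then received fecal microbiota transplantation (FMT) for 8 weeks. Donors were also OVX mice, kept sedentary for the TranspCtrl group (3 samples) or exercised on a treadmill for the TranspExer group (3 samples). The cells were flushed marrow cells kept for 7 days in culture, where attachment and washing were the means of enrichment. The strain, the number of mice behind each sample and the hour at which marrow or cells were collected were not given in the sources used here. The samples were taken at the end of the experiment and not in a time series, so levels and differences between groups could be measured, but not rhythms, phase or amplitude.

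The mammalian clock is a feedback loop of transcription. CLOCK, or its close relative NPAS2, pairs with BMAL1 (encoded by *Arntl*), binds E-box sequences and switches on the *Per* and *Cry* genes, whose proteins return to the nucleus and block the same pair. DBP, TEF and HLF are the PAR bZIP factors (a basic leucine zipper with a proline- and acid-rich domain), which carry the rhythm to other genes through D-box sequences. Nearly every cell type holds such a loop, cells of the osteoblast lineage among them, and mice lacking *Per* or *Cry* genes have been described with high bone mass.

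Regulatory sequence of the members is shown first, since the letters that clock factors read can be set beside the levels. RefSeq promoter windows of GRCm38.p6, from 250 bases before to 50 bases after a transcription start, were matched by symbol for 9 of the 10 members (13 windows) and not for *Per2*. In a search of both strands, the E-box CACGTG was found in 5 of the 13 windows, against 7.15% of all 32851 windows of this length. The variant CACGTT, called the E'-box, was found in 2 of the 13 windows and 4.68% of all windows. The D-box TTATGTAA was found in 1 of the 13 windows and 0.938% of all. None of the members' windows held the D-box TTACGTAA, the cAMP response element TGACGTCA or TAGGTCA, the core of the element read by REV-ERB and ROR receptors. These motifs share letters (CACGT in both E-boxes) but did not overlap in the windows. The windows printed are those of the 3 members that fell in the TranspExer group (*Ciart*, *Tef* and *Dbp*) and the window of *Per3*, the member with D-boxes. They run 5′ to 3′ on the gene's strand, with motif letters in capitals.

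Ciart, chr3:95882179-95882478, minus strand: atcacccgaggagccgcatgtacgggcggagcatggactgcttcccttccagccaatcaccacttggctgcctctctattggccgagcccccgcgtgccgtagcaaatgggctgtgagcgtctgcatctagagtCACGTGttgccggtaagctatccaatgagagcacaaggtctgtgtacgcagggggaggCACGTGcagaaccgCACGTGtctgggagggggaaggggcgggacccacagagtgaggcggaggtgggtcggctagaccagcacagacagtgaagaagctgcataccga
Tef, chr15:81802423-81802722, plus strand: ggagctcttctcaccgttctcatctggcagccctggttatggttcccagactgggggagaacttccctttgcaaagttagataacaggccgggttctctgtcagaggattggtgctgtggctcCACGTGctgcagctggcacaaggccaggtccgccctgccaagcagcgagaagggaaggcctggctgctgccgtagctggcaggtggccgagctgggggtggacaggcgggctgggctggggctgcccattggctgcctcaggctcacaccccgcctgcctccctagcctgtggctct
Tef, chr15:81811164-81811463, plus strand: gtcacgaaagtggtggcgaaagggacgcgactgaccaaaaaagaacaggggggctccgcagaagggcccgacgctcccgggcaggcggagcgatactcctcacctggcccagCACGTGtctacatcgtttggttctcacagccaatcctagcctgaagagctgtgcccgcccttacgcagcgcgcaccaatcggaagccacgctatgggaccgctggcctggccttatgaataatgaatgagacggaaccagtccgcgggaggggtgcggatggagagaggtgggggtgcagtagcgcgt
Dbp, chr7:45704997-45705296, plus strand: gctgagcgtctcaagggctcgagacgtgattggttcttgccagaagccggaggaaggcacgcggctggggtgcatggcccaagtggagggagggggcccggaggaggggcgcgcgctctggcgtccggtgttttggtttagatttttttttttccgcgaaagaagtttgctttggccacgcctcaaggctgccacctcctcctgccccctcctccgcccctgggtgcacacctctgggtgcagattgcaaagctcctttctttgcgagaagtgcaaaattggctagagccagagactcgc
Per3, chr4:151044616-151044915, minus strand: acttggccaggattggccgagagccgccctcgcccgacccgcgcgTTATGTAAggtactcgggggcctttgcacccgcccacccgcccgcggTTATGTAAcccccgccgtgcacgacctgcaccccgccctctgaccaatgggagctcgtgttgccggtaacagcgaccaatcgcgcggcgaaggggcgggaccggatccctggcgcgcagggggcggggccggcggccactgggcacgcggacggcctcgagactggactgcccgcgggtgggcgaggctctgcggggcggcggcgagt

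The *Ciart* window held 3 E-boxes, with first letters at -116, -58 and -44 bases from the start. Each *Tef* window held 1 E-box, at -127 in the first and -138 in the other. The *Dbp* window held none of the motifs searched, which says nothing of sequence outside these 300 bases. *Per1* and *Cry1* also held an E-box, at -166 and -60 bases from a start, and *Cry2* and *Cry1* held an E'-box. The E-box was therefore found beside members that fell and beside members that did not pass the test. A match of letters is not a measured binding site.

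**Figure D1:**
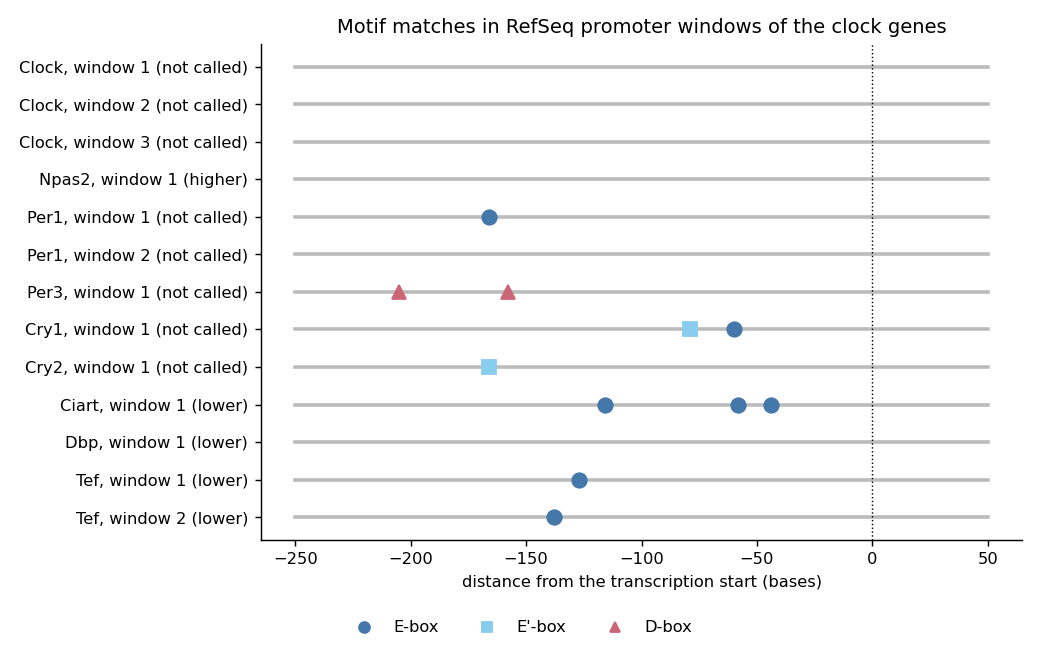
Matches of the E-box, the E'-box and the D-box TTATGTAA in the 13 RefSeq promoter windows of 9 clock genes (*Per2* had no entry), by distance from the transcription start in bases; a marker stands at the first base of a match, and brackets give whether the gene was called higher, called lower or not called in the TranspExer group. The 3 E-boxes of *Ciart* lie at -116, -58 and -44, and the windows of *Clock*, *Npas2* and *Dbp* are empty.

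Across the table, total counts ranged from 17647682 to 21319228 per sample, and 15190 genes passed the filter on low counts (edgeR's filterByExpr), all 10 members among them. Levels are CPM, the gene's counts scaled to library totals with TMM factors. Differences are log2FC, the log2 fold change of TranspExer over TranspCtrl, with its standard error (SE). A gene is called where its edgeR quasi-likelihood p-value, adjusted by Benjamini-Hochberg over all tested genes, is under 0.05. The groups were far apart: 16.6% of tested genes were called higher in the TranspExer group and 15.5% lower, and the groups did not overlap for 52.4% of them. With upper-quartile factors in place of TMM, 41.4% of called genes were higher, against 51.7% in the reported fit. TranspCtrl replicate 1 stood apart from the other TranspCtrl samples, at distances of 62.8 and 60.2 in log2 CPM against 37 between replicates 2 and 3, so calls and counts that turn on it are given with and without it. All 14 stromal marker genes were tested, of which 2 were called higher and 9 lower, and their summed level was 15090 to 23210 CPM in TranspCtrl, with replicate 1 the lowest, and 14240 to 15530 CPM in TranspExer. The 9 macrophage markers (1 called higher, 2 lower) summed to 9378 to 14450 CPM and 7552 to 8215 CPM, so the cultures labelled as MSCs also held macrophage RNA, and their most abundant gene was *Lyz2*, which fell from 6412 ± 2336 CPM to 2910 ± 319.9 CPM (SD, n = 3 each; edgeR adjusted p = 0.00873), with 9102 CPM in TranspCtrl replicate 1 and 4895 and 5238 CPM in replicates 2 and 3, while *Csf1r* had 882 ± 33.0 CPM and 928 ± 41.9 CPM and was not called. The leading stromal genes were *Col1a1*, with 8042 ± 3018 CPM and 7222 ± 459.6 CPM (not called; 4563 CPM in TranspCtrl replicate 1, 9951 and 9613 CPM in replicates 2 and 3), and *Col1a2*, which fell from 6504 ± 1199 CPM to 4250 ± 161.1 CPM (SD, n = 3 each; edgeR adjusted p = 0.0148). Of the other marker lists, all 10 endothelial genes were higher in TranspExer (211.7 to 251.5 CPM summed in TranspCtrl, 674.7 to 732.1 CPM in TranspExer), and 7 of 9 tested B and plasma cell genes were lower (1591 to 1968 CPM and 419.7 to 442 CPM). Of 6 osteoclast genes 5 were lower and 1, *Atp6v0d2*, was higher, of 6 megakaryocyte genes 4 were higher, of 9 neutrophil genes 2 were higher and 1 lower, and of 9 T and NK cell genes 1 was higher and 2 lower. With TranspCtrl replicate 1 left out, where the shares of all tested genes called were also larger, 22.1% higher and 19.6% lower, 11 stromal genes and 8 B and plasma cell genes were lower, 5 neutrophil genes were higher and 1 lower, 4 macrophage genes were higher and 2 lower, 6 megakaryocyte genes were higher, and 1 T and NK cell gene was higher and 3 lower. The erythroid genes were near 0, with at most 10 counts in a sample for 7 of 8, among them the globin genes. In bulk RNA, fewer cells of a type and less RNA per cell cannot be told apart, and the part of these marker differences in the clock results below was not tested.

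Of the 10 clock genes, *Npas2* rose in the TranspExer group, *Dbp*, *Ciart* and *Tef* fell, and the other 6 did not pass the test. *Npas2* was 1.82-fold higher, and *Dbp*, *Ciart* and *Tef* were 1.61-fold, 1.58-fold and 1.29-fold lower. *Clock*, the *Per* genes and the *Cry* genes had estimates between -0.22 and 0.19 on the log2 scale. In all, 4 of 10 members were called, against 32.2% of all tested genes, so the share of members called was near the background. The members and the gene lists used here were chosen with earlier results of these data known, so such shares are descriptions. By direction, 1 of 10 was called higher against 16.6% of tested genes, and 3 of 10 lower against 15.5%. Without TranspCtrl replicate 1, 1 was called higher and 4 lower, against 22.1% and 19.6% of the genes then tested. No member reached a 2-fold change together with the adjusted p-value, the threshold used by the study for differentially expressed genes, which 8.78% of tested genes passed (3.50% higher and 5.28% lower); without the fold, 4 members were called. The median log2FC was -0.09 over the 10 members and -0.02 over all tested genes. For 6 of 10 members the TranspExer samples lay all above or all below the TranspCtrl samples, against 52.4% of tested genes: 2 members were higher throughout, against 27.2%, and 4 lower throughout, against 25.1%.

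**Figure D2:**
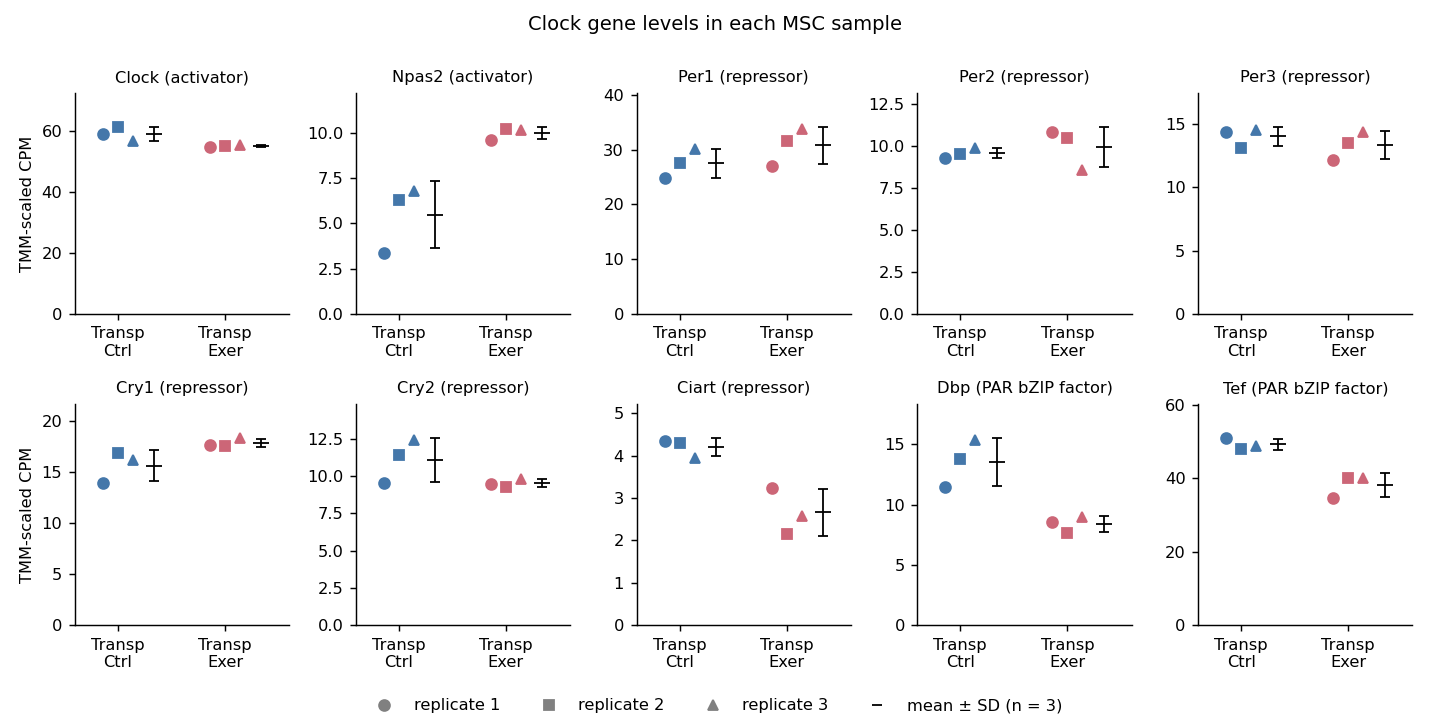
TMM-scaled CPM of each clock gene in each of the 6 samples (circle, square and triangle for replicates 1, 2 and 3), with the mean and SD of each group (n = 3) beside them; every axis starts at 0. The TranspExer samples lie above every TranspCtrl sample for *Npas2*, from 9.57 to 10.2 CPM, and below every TranspCtrl sample for *Dbp*, *Ciart* and *Tef*.

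The activators are the DNA-binding partners of BMAL1. *Clock* (ENSMUSG00000029238) lies on chromosome 5 of GRCm38 (76209868 to 76304792, minus strand, up to 23 exons in a transcript of GENCODE M21). It had 59.1, 61.4 and 56.6 CPM in TranspCtrl replicates 1, 2 and 3, and 54.8, 55.1 and 55.4 CPM in TranspExer replicates 1, 2 and 3. The TranspExer samples all lay below the TranspCtrl samples, by a small margin. The log2FC was -0.10 (SE 0.07, 95% interval -0.26 to 0.06, edgeR adjusted p = 0.304).

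*Npas2* (ENSMUSG00000026077, chromosome 1, 39193731 to 39363236, plus strand), which can stand in for CLOCK in many tissues, was the member that rose. It had 3.37, 6.26 and 6.79 CPM in the TranspCtrl samples and 9.57, 10.2 and 10.1 CPM in the TranspExer samples. TranspCtrl replicate 1 was the lowest, and the TranspExer samples were close to each other. The means were 5.47 ± 1.84 CPM (SD, n = 3) and 9.98 ± 0.354 CPM (SD, n = 3), a 1.82-fold rise (log2FC 0.86, SE 0.23, edgeR adjusted p = 0.0255). Without TranspCtrl replicate 1 the log2FC was 0.61 (adjusted p = 0.00135), and without TranspExer replicate 1, 2 or 3 the log2FC was 0.89, 0.84 and 0.84 with adjusted p-values of 0.0702, 0.08165 and 0.0862.

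Per length of transcript, *Npas2* was far less abundant than *Clock*. The gene span of *Clock*, introns included, contains the pseudogene *Ube2n-ps1* on the same strand over 459 bases. The pseudogene had 413 to 580 counts per sample (log2FC 0.23, edgeR adjusted p = 0.169) and was counted apart from *Clock*. Whether this stretch lies in an exon of *Clock* was not tested. The log2 ratio of *Npas2* to *Clock* counts per base of gene length was -3.31, -2.47 and -2.24 in the TranspCtrl samples and -1.70, -1.61 and -1.63 in the TranspExer samples. The ratio was higher in each TranspExer sample than in any TranspCtrl sample. For such a ratio, with 3 samples in each group, the exact permutation test (two-sided) cannot give a p-value below 0.1, so the 7 ratios computed between members are given as descriptions. The ratio of *Dbp* to *Clock* was -0.35, -0.13 and 0.15 in TranspCtrl and -0.66, -0.82 and -0.60 in TranspExer, lower in each TranspExer sample. The ratio of *Ciart* to *Clock* was -1.82, -1.88 and -1.89 in TranspCtrl and -2.13, -2.73 and -2.48 in TranspExer, likewise lower. That of *Per3* to *Per1* was -1.16, -1.44 and -1.42 and then -1.52, -1.60 and -1.60, again without overlap, while the ratios of *Per1* to *Clock* and *Tef* to *Dbp* overlapped.

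Of the PAR bZIP factors, the members *Dbp* and *Tef* both fell, and *Hlf* rose. *Dbp* (ENSMUSG00000059824, chromosome 7, 45705088 to 45710203, plus strand), a direct target of CLOCK and BMAL1 with a strong daily rhythm in many tissues, had 11.4, 13.8 and 15.4 CPM in TranspCtrl and 8.53, 7.67 and 8.99 CPM in TranspExer. Every TranspExer sample was below every TranspCtrl sample. The means were 13.5 ± 2.00 CPM (SD, n = 3) and 8.40 ± 0.669 CPM (SD, n = 3), so *Dbp* was 1.61-fold lower (log2FC -0.69, SE 0.14, edgeR adjusted p = 0.00853). The call was kept in all 12 alternative fits, with log2FC values between -0.80 and -0.59. The gene span of *Dbp* shares 737 bases with that of *Sphk2* on the opposite strand, which had 804 to 1452 counts per sample, more than *Dbp*. *Sphk2* had a log2FC of 0.59 (edgeR adjusted p = 0.00622), opposite in sign to that of *Dbp*. The paper names a TruSeq RNA kit and does not say whether it kept the strand. Whether counting used the strand was not given in the sources used here.

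*Tef* (ENSMUSG00000022389, chromosome 15, 81802421 to 81826863, plus strand) had 50.9, 47.9 and 48.6 CPM in TranspCtrl and 34.5, 39.9 and 39.99 CPM in TranspExer, again without overlap. It fell by 0.37 on the log2 scale (SE 0.09, edgeR adjusted p = 0.0144), with means of 49.1 ± 1.58 CPM and 38.1 ± 3.17 CPM in TranspExer (SD, n = 3 each). TranspExer replicate 1 was the lowest sample, and without it the log2FC was -0.31 (adjusted p = 0.0549). The remaining PAR bZIP factor, *Hlf*, which is no member, moved the other way. It had 1.76, 1.85 and 2.42 CPM in TranspCtrl and 4.50, 4.24 and 5.32 CPM in TranspExer, a log2FC of 1.22 (SE 0.20, edgeR adjusted p = 0.00307). Per kilobase of gene length *Hlf* was at 0.356 CPM in TranspCtrl and 0.831 CPM in TranspExer, below *Dbp* and *Tef* in both groups. *Nfil3*, which represses through the same D-boxes, measured 44.6 ± 6.28 CPM in TranspCtrl against 43.9 ± 2.03 CPM (SD, n = 3 each; edgeR adjusted p = 0.891). Its log2FC was -0.02, and -0.14 without TranspCtrl replicate 1 (adjusted p = 0.107).

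The repressors act on CLOCK and BMAL1, and of these 6 genes only *Ciart* was called in the reported fit. *Ciart* (ENSMUSG00000038550, chromosome 3, 95878503 to 95882251, minus strand), also known as Chrono, had 89, 84 and 85 counts in TranspCtrl and 62, 37 and 52 counts in TranspExer. In CPM these were 4.35, 4.31 and 3.95 against 3.24, 2.15 and 2.58, so the groups did not overlap and the TranspExer samples were the more spread. It was 1.58-fold lower (log2FC -0.66, SE 0.19, edgeR adjusted p = 0.0332). The call was sensitive to single samples: leaving out TranspCtrl replicate 2 or 3, or TranspExer replicate 2 or 3, gave adjusted p-values of 0.0755, 0.0604, 0.106 and 0.101, with log2FC values of -0.63, -0.70, -0.54 and -0.65. The whole of *Ciart* is overlapped on the opposite strand by *C920021L13Rik*, which had 52, 22 and 23 counts in TranspCtrl and 13, 17 and 13 counts in TranspExer (log2FC -1.04, edgeR adjusted p = 0.0911). Reads from exons that overlap in this pair could not be told apart if the counting ignored strand.

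The *Per* genes encode the repressors whose build-up and decay set the pace of the loop. *Per1* (ENSMUSG00000020893, chromosome 11, 69095217 to 69109960, plus strand) had 24.9, 27.5 and 30.2 CPM in TranspCtrl and 27.1, 31.6 and 33.7 CPM in TranspExer. *Per2* (ENSMUSG00000055866, chromosome 1, 91415982 to 91459324, minus strand) had 9.28, 9.55 and 9.90 CPM and then 10.8, 10.5 and 8.59 CPM. *Per3* (ENSMUSG00000028957, chromosome 4, 151003652 to 151044665, minus strand) had 14.4, 13.1 and 14.6 CPM and then 12.2, 13.5 and 14.4 CPM. The groups overlapped for all 3 genes. Their log2FC values were 0.16 (95% interval -0.10 to 0.42), 0.06 (-0.23 to 0.34) and -0.07 (-0.32 to 0.18), with adjusted p-values of 0.299, 0.753 and 0.634 from edgeR. For *Per1* a difference of up to 0.42 therefore lay within the interval, and for the other 2 one of up to 0.34. The estimate of *Per2* changed sign with upper-quartile factors (-0.02), with library size only (-0.03) and without TranspExer replicate 1 (-0.02), and was not called in any fit. The gene span of *Per3*, the member with 2 D-boxes in its window, lies wholly within that of *Camta1* on the same strand. *Camta1* had 86 to 148 counts per sample against 232 to 313 for *Per3*, and whether their exons overlap was not tested.

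The cryptochromes are the partners of PER in the repressor complex, and their estimates lay in opposite directions. *Cry1* (ENSMUSG00000020038, chromosome 10, 85131700 to 85185064, minus strand) had 13.9, 16.9 and 16.2 CPM in TranspCtrl and 17.7, 17.6 and 18.4 CPM in TranspExer, without overlap. Its log2FC was 0.19 (SE 0.10, edgeR adjusted p = 0.189). *Cry2* (ENSMUSG00000068742, chromosome 2, 92403646 to 92434043, minus strand) had 9.52, 11.4 and 12.4 CPM and then 9.47, 9.30 and 9.84 CPM. TranspCtrl replicate 1 lay among the TranspExer samples, and the other TranspCtrl samples lay above them. The log2FC of *Cry2* was -0.22 (SE 0.13, edgeR adjusted p = 0.215), and without TranspCtrl replicate 1 it was -0.32 (adjusted p = 0.0296), which passed the threshold. Within each sample, the log2 ratio of *Cry2* to *Cry1* per base of gene length was -0.94, -0.96 and -0.78 in TranspCtrl and -1.29, -1.32 and -1.30 in TranspExer. The ratio was lower in every TranspExer sample, and neither gene was called alone. It is given as a description, since the share of all gene pairs separated in this way was not computed.

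**Figure D3:**
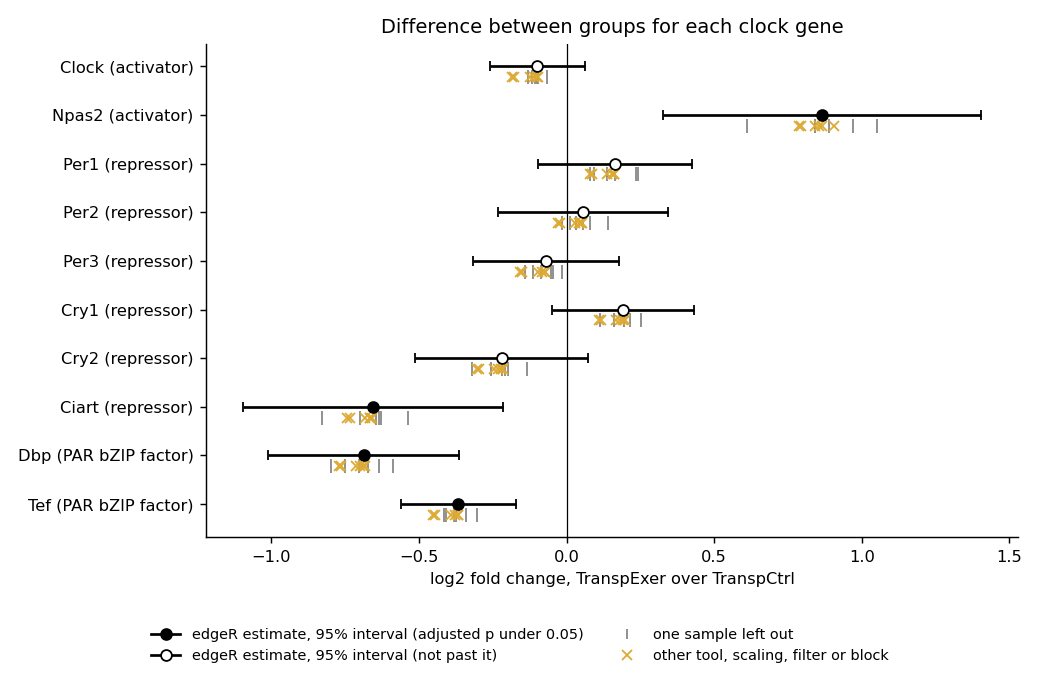
The log2FC of each clock gene (TranspExer over TranspCtrl, edgeR estimate with its 95% interval; filled where the adjusted p-value is under 0.05), and below each the values with 1 sample left out (gray bars) or with another tool, scaling, filter or block (crosses). *Npas2* lies at 0.86, *Dbp*, *Ciart* and *Tef* lie at -0.69, -0.66 and -0.37, and the intervals of the other 6 genes include 0.

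The order of the members was compared on mean CPM per kilobase of the deposited gene length. In TranspCtrl the order was *Tef* (12.1), *Clock* (7.90), *Dbp* (7.37), *Per1* (5.93), *Cry1* (5.18), *Cry2* (2.80), *Per3* (2.34), *Ciart* (2.17), *Per2* (1.64) and *Npas2* (1.29). In this order the samples of neighbours did not overlap between *Tef* and *Clock*, *Cry1* and *Cry2*, or *Ciart* and *Per2*, and overlapped for the other pairs. In TranspExer the order was *Tef* (9.35), *Clock* (7.37), *Per1* (6.65), *Cry1* (5.91), *Dbp* (4.57), *Cry2* (2.40), *Npas2* (2.36), *Per3* (2.23), *Per2* (1.71) and *Ciart* (1.37). *Dbp* stood above *Per1* and *Cry1* in TranspCtrl and below them in TranspExer, and *Npas2* stood last in TranspCtrl and level with *Cry2* and *Per3* in TranspExer. *Npas2* and *Ciart* exchanged the last place. Among neighbours in TranspExer, the samples overlapped for *Per1* and *Cry1*, for *Cry2* and *Npas2*, for *Npas2* and *Per3*, and for *Per2* and *Ciart*.

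The rest of the pathway was described with 45 other genes in hand-written lists, of which 41 were tested. Of these, 7 were called higher and 3 lower in the TranspExer group, against 16.6% and 15.5% of all tested genes, with a median log2FC of 0.13. Without TranspCtrl replicate 1 the counts were 11 and 7, against 22.1% and 19.6% of the genes then tested. Among 11 transcription factors of the loops, *Hlf* was called higher, *Arntl2* was called lower, 7 were not called and 2 were not tested, among them *Rorb* with at most 2 counts in any sample. *Arntl*, the gene of BMAL1, measured 17.6 ± 0.751 CPM in TranspCtrl against 15.6 ± 1.09 CPM (SD, n = 3 each), without overlap (log2FC -0.17, edgeR adjusted p = 0.211). Its relative *Arntl2* had 5.18, 3.23 and 4.51 CPM and then 2.83, 2.21 and 2.63 CPM, a log2FC of -0.75 (edgeR adjusted p = 0.0334). That call was lost without TranspCtrl replicate 3 or without any TranspExer sample, with log2FC values of -0.83 to -0.67 and adjusted p-values of 0.0744 to 0.115.

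*Nr1d1* and *Nr1d2* encode REV-ERB receptors, which repress *Arntl*, and *Rora* encodes a receptor that activates it. *Nr1d1* had 10.6, 18.6 and 17.3 CPM in TranspCtrl and 19.5, 19.4 and 19.8 CPM in TranspExer, a log2FC of 0.33 (edgeR adjusted p = 0.212). Without TranspCtrl replicate 1, its lowest sample, the log2FC was 0.12 (adjusted p = 0.285). *Nr1d2* and *Rora* had log2FC values of -0.22 and -0.35 (adjusted p = 0.0763 and 0.111). Without TranspCtrl replicate 1 both passed the threshold, at -0.27 and -0.51 (adjusted p = 0.00495 and 0.000324), and both also passed with upper-quartile factors (adjusted p = 0.0185 and 0.0482). *Bhlhe40* and *Bhlhe41*, the DEC repressors that compete for E-boxes, had log2FC values of -0.12 and 0.30 (adjusted p = 0.452 and 0.216). Without TranspCtrl replicate 1, *Bhlhe40* was lower, at -0.25 (adjusted p = 0.00228), and *Bhlhe41* had a log2FC of 0.10 (adjusted p = 0.207).

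Of 14 kinases and ubiquitin system genes that act on clock proteins, 3 were called higher, none lower and 11 were not called, against 16.6% of all tested genes higher and 15.5% lower. The count was 5 higher without TranspCtrl replicate 1, against 22.1% of the genes then tested. *Csnk2b*, the regulatory subunit of casein kinase 2, had a log2FC of 0.63 (edgeR adjusted p = 0.0188). *Csnk1e*, a kinase that marks PER proteins for decay, had one of 0.25 (adjusted p = 0.0344), and *Prkaa2*, a catalytic subunit of AMPK, one of 0.76 (adjusted p = 0.0404). Of 10 cofactors, 1 was called higher and 2 lower. Without TranspCtrl replicate 1 these counts were 2 and 3, against 22.1% and 19.6% of the genes then tested. *Wdr5*, a subunit of histone methyltransferase complexes, was called higher at 0.45 (adjusted p = 0.00409). *Kdm5a*, a histone demethylase, and *Nono*, an RNA-binding partner of PER proteins, were called lower at -0.42 and -0.34 (adjusted p = 0.00604 and 0.0204).

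Of 10 genes listed as clock outputs, 8 were tested, 2 were called higher and none lower, against 16.6% and 15.5% of all tested genes. Without TranspCtrl replicate 1, 3 were higher, against 22.1% of the genes then tested. *Por*, the electron donor of cytochrome P450 enzymes, had 103, 127 and 121 CPM in TranspCtrl and 276, 279 and 293 CPM in TranspExer, a log2FC of 1.27 (SE 0.10, edgeR adjusted p = 0.000109). *Alas1*, the first enzyme of heme synthesis, had one of 0.55 (adjusted p = 0.003). *Wee1*, *Nampt* and *Noct* had log2FC values of 0.35, -0.07 and 0.16 and were not called. *Alas1* had 161, 140 and 139 CPM in TranspCtrl and 216, 222 and 206 CPM in TranspExer, so neither gene's groups overlapped.

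**Figure D4:**
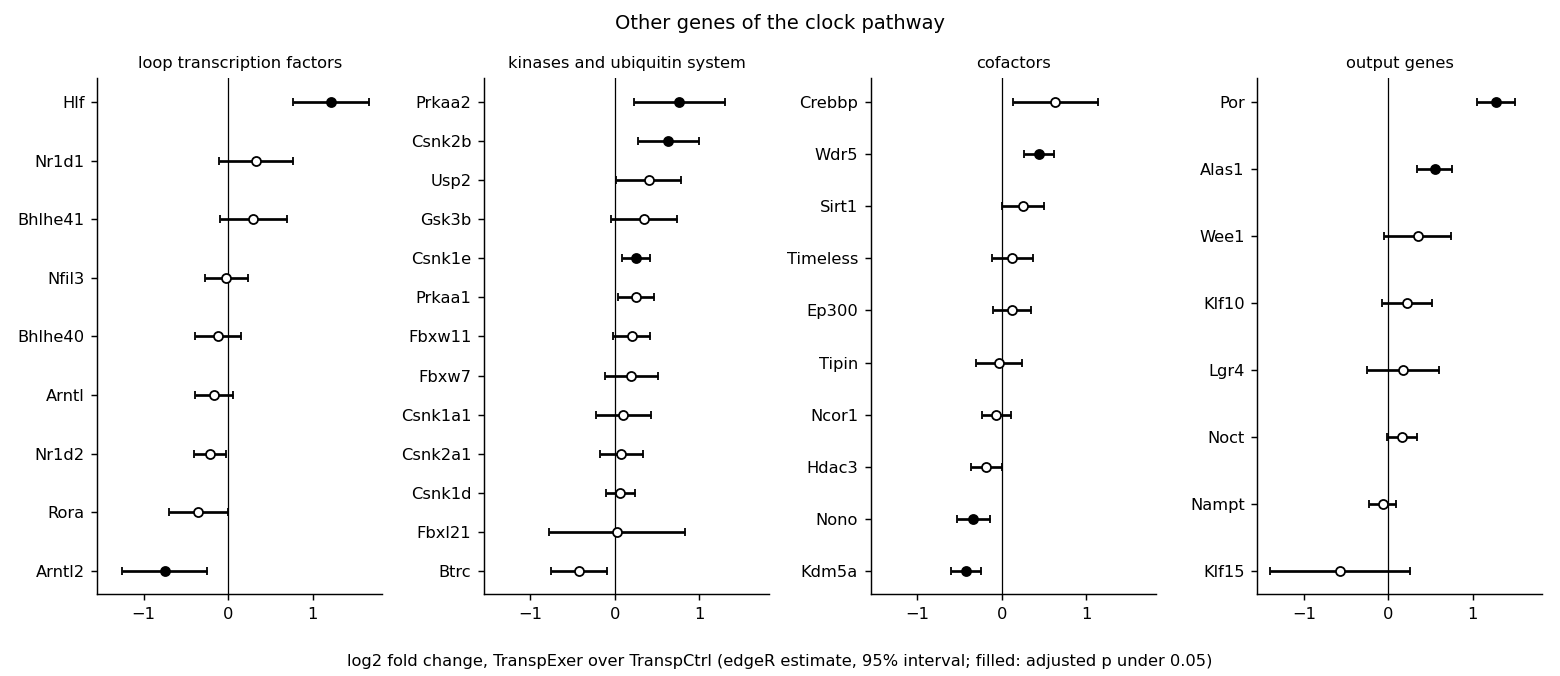
The log2FC of other clock pathway genes in 4 lists, for 40 of the 41 tested (TranspExer over TranspCtrl, edgeR estimate with its 95% interval; filled where the adjusted p-value is under 0.05). *Hlf* at 1.22 and *Por* at 1.27 are the only genes shown above 1, and *Arntl2* has the lowest estimate, -0.75.

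Glucocorticoids and serum are known to reset the clocks of cultured cells, so genes that these inputs induce were counted in the same fit. Of 8 glucocorticoid-inducible genes, 4 were called higher and 1 lower, where 16.6% and 15.5% of all tested genes were. Without TranspCtrl replicate 1 these counts were 4 and 2, against 22.1% and 19.6% of the genes then tested. *Dusp1*, *Fkbp5*, *Zbtb16* and *Errfi1* had log2FC values of 0.74, 0.37, 1.20 and -0.37 (edgeR adjusted p = 0.000792, 0.0232, 0.0242 and 0.009), and *Sgk1* had one of 0.27 (adjusted p = 0.0442). Of 10 early genes of CREB and SRF, 3 were called higher and none lower, against 16.6% and 15.5% of all tested genes. Without TranspCtrl replicate 1, 4 were higher, against 22.1% of the genes then tested. *Egr2*, *Fos* and *Jun* had log2FC values of 0.84, 0.69 and 0.41 (edgeR adjusted p = 0.000602, 0.000683 and 0.0121). *Per1*, which both inputs are known to induce, was not called. The part of these inputs in the levels of the clock genes was not tested.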

How the data were processed

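The authors deposited expected counts (estimated read counts per gene, not normalized, 10.1% to 12.2% of values not whole) for 56980 genes. The submitters' processing notes name the build mm10, and the aligner and counting tool were not given in the sources used here. Counts were rounded and tested with edgeR 4.0.16 in R 4.3.3 (filterByExpr, TMM, quasi-likelihood test, design with group alone), and p-values of 15190 genes were adjusted by Benjamini-Hochberg. The labels do not say whether samples are separate mice or cultures, so p-values measure the spread between these samples. At these depths 3 counts equalled at most 0.174 CPM, for counting error only. Coordinates and overlaps came from GENCODE M21 (GRCm38, which is mm10), where 52073 identifiers matched. Overlaps are of whole gene spans, introns included, and overlap of exons was not tested. Promoters came from RefSeq.

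The members and all gene lists were chosen with earlier results of these data known. Genes named were all members, all loop transcription factors, and of each other pathway list, up to 4 called genes ranked by adjusted p-value, with up to 2 of the most abundant genes of a cell type list; *Wee1*, *Nampt*, *Noct*, *Sgk1*, *Sphk2*, *Camta1*, *Ube2n-ps1* and *C920021L13Rik* were named outside that rule. Alternatives were DESeq2 1.42.0, upper-quartile factors, library size only, other filters, a replicate block, the DEG thresholds and each sample left out. Some genes of the lists are counted but not reported here by name.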

Additional observations from a re-analysis of the deposited data

How the results depend on the processing

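Over the 10 clock genes and 12 alternative fits, 111 of 120 values kept their side of the threshold, 8 calls were lost and 1 was gained, all 9 with 1 sample left out. With DESeq2, both other scalings, both other filters and the replicate block, 1 clock gene was called higher and 3 lower, as reported. With 1 sample left out, the number called higher was 0 to 1 and the number lower 2 to 4. With the fold change of 2 also required, 0 clock genes were higher and 0 lower. For the other clock pathway genes, this left 2 higher and 0 lower, and for all genes 531 higher and 802 lower. With 1 sample left out, 4 to 11 of the other pathway genes were higher and 1 to 7 lower, and 1315 to 3417 of all genes were higher and 1325 to 3041 lower. With upper-quartile factors 7 pathway genes were lower, and with library size only 7 were lower. The labels number the replicates 1 to 3 in both groups but do not pair them, and deviations of same-numbered samples correlated at 0.0247, -0.00167 and 0.0416. When a replicate block was added, 2484 genes were higher and 2218 lower, and *Ciart* had an adjusted p-value of 0.0471 from edgeR. The SE of *Npas2* was 0.23 in the reported fit and 0.12 without TranspCtrl replicate 1. The cause of the lost calls was not tested.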
